A study of Mus musculus with 5 samples.

Results

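The genes described here are 9 chromatin regulators of germinal centre B cells: Ezh2, Ezh1, Eed and Suz12 of Polycomb repressive complex 2 (PRC2), the demethylase gene Kdm6a, the acetyltransferase genes Crebbp and Ep300, the deacetylase gene Hdac3 and the remodeller subunit gene Arid1a. They were taken by gene symbol from the annotation of the Affymetrix array and had 25 of the 45101 probe sets in the table. A probe set is a group of short probes against 1 transcript, and its signal is a fluorescence intensity summarised by the MAS5 method. The 2 REL arrays came from eGFP+ germinal centre B cells of relfl/flCg1-Cre mice, in which loxP-flanked Rel alleles (Rel encodes the NF-kB subunit c-Rel) are recombined by Cre. The 3 WT arrays came from eGFP− germinal centre B cells of littermates with Cg1-Cre and no floxed Rel. All mice were on the C57BL/6 background and 12 weeks old, and cells were sorted from the spleen 7 days after injection of sheep red blood cells (SRBC), the immunogen. Cg1-Cre is expressed from the constant-region locus of IgG1, which is transcribed in activated and germinal centre B cells, and both groups carried it. The labels do not say whether arrays came from separate animals or pools, so the tests measure the spread between these arrays, which may be technical.

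PRC2 silences genes by methylating lysine 27 of histone H3, with EZH2 or its paralog EZH1 as the catalytic subunit and EED and SUZ12 as obligate partners. In the germinal centre EZH2 is abundant and holds down cell cycle inhibitors and plasma cell genes while B cells divide. KDM6A removes the mark, CBP (Crebbp) and p300 (Ep300) acetylate histones at enhancers, HDAC3 removes acetyl groups together with the repressor BCL6, and ARID1A belongs to the BAF nucleosome remodeller. The genes for EZH2, CBP, p300, KDM6A and ARID1A are mutated in human germinal centre lymphomas.

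Promoters of 2 PRC2 genes are shown because Ezh2 encodes the subunit best known in germinal centre B cells and 1 of the 6 Suz12 probe sets had the smallest unadjusted p of all member probe sets (below). They are RefSeq sequences of build GRCm38.p6, from 250 bases before to 50 after the gene start, and the capitals mark a match to the E2F motif TTTNNCGC in which each N is C or G. The Ezh2 window is chr6:47594981-47595280 on the minus strand, and the Suz12 window is chr11:79992856-79993155 on the plus strand.
Ezh2: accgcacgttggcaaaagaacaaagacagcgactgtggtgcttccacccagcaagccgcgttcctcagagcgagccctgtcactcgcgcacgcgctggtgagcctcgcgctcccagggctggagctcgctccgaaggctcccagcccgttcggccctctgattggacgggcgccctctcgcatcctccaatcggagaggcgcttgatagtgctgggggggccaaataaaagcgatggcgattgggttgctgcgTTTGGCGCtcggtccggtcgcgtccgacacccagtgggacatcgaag
Suz12: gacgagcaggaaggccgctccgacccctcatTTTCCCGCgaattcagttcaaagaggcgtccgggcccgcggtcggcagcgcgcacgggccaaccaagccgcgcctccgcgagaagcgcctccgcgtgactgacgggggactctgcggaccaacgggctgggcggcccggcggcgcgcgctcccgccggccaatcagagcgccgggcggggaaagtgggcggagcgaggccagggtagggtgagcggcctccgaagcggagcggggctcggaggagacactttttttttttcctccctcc

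RefSeq promoters were matched for 8 of the 9 genes, 9 windows in all. Both strands were searched. The E2F motif was found in 3 windows, those of Ezh2 and Suz12 and 1 of 2 windows of Arid1a, against 2.26% of all 32851 promoters of this length. The NF-kB consensus (GGG, a purine, any base, A or T, a pair of pyrimidines, CC) was found in 0 of the 9 windows and in 4.51% of all promoters. These letter matches are a description of the windows and not of factor binding.

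Rel itself had signals of 18.6 and 85.2 on REL arrays, against 492, 134 and 206 on WT arrays. Both were below all WT arrays, but the difference of −2.12 on the log2(signal + 16) scale (SE 0.74) had a limma adjusted p of 0.493, and whether its probe set lies in the deleted part is not given in the sources used here. Array medians were 48.1 and 30.1 in REL and 40.7, 41.1 and 54.6 in WT. The B cell gene Ms4a1 had signals of 12227 to 13620 in REL and 12413 to 14851 in WT, and the germinal centre repressor gene Bcl6 had 8731 to 9384 in REL and 7619 to 10515 in WT, both overlapping. Of 11 germinal centre B cell markers 0 passed the test, 3 were above 0 and 8 below. For 2 of the 11, Rgs13 and Gcsam, the REL arrays lay below all WT arrays, against 14.2% of all genes. For 0 of the 11 the REL arrays exceeded all WT arrays, against 9.67%. Rgs13 had 4514 and 3321 in REL, against 4960, 6058 and 6022 in WT (−0.54, unadjusted p = 0.0197, limma adjusted p = 0.498), and Gcsam had 3368 and 2442 in REL, against 3726, 3803 and 4298 in WT (−0.45). The summed signal of 18 macrophage, monocyte and neutrophil markers was 7193 to 8881 on REL arrays and 1372 to 3579 on WT arrays. Of the 15 such markers tested 0 were called by limma, 12 were above 0 and 3 below. The REL arrays exceeded all WT arrays for 11 of the 15, against 9.67% of all genes, and lay below them all for 1, against 14.2%. Among the 11, Vcam1 and C1qc had signals of 52.7 to 671 in REL and at most 2.46 in WT. Testing required a mean signal over the 5 arrays above 26.8. The WT signals of Vcam1, C1qc, Mrc1 and Mertk were all below it, at most 17.6. Csf1r and C1qb exceeded it on a WT array, but their mean WT signals were below it. All of these genes were therefore tested only through their REL signals. For them the filter itself favoured REL above WT, so the count of 11 is a description and not a test. Adgre1, which encodes F4/80, had 120 and 116 in REL, against 154, 435 and 161 in WT. S100a8 and S100a9 were both at −1.65 with overlapping groups, Cd68 also overlapped, and C1qa, Cd14 and Itgam were below the threshold for testing. The part of these markers in the results below was not tested.

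The question of the comparison was whether eGFP+ germinal centre B cells with floxed Rel and Cg1-Cre carried different levels of these regulators than eGFP− cells with Cg1-Cre alone. The genotype and the eGFP gate used for sorting differ together between the groups and cannot be told apart. None of the 9 genes passed the test: 22 of their 25 probe sets were above the lowest 40% of signals (26.8) and were tested, and 0 were called by limma at an adjusted p under 0.05, as was 0% of all 22204 probe sets tested. The adjusted p of the 22 ran from 0.561 to 0.978. At an unadjusted p under 0.05 there was 1 member probe set higher in REL, for Suz12, and 0 lower, where the shares of all probe sets were 3.66% higher and 4.45% lower, 8.11% together. The log2 difference was above 0 for 14 of the 22, against 45.7% of all probe sets (16 of the 22 against 59.8% with the arrays centred on their medians), and its median was 0.19 for the members and −0.05 for all. Taking 1 probe set per gene, the brightest, the difference was above 0 for 4 genes and below 0 for 5, with a median of −0.04, so the excess above 0 lay in further probe sets of the same genes. An exact permutation test of 2 against 3 arrays has 10 splits, and its two-sided p, taken here by doubling the smaller one-sided p, cannot be below 0.2.

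**Figure D1:**
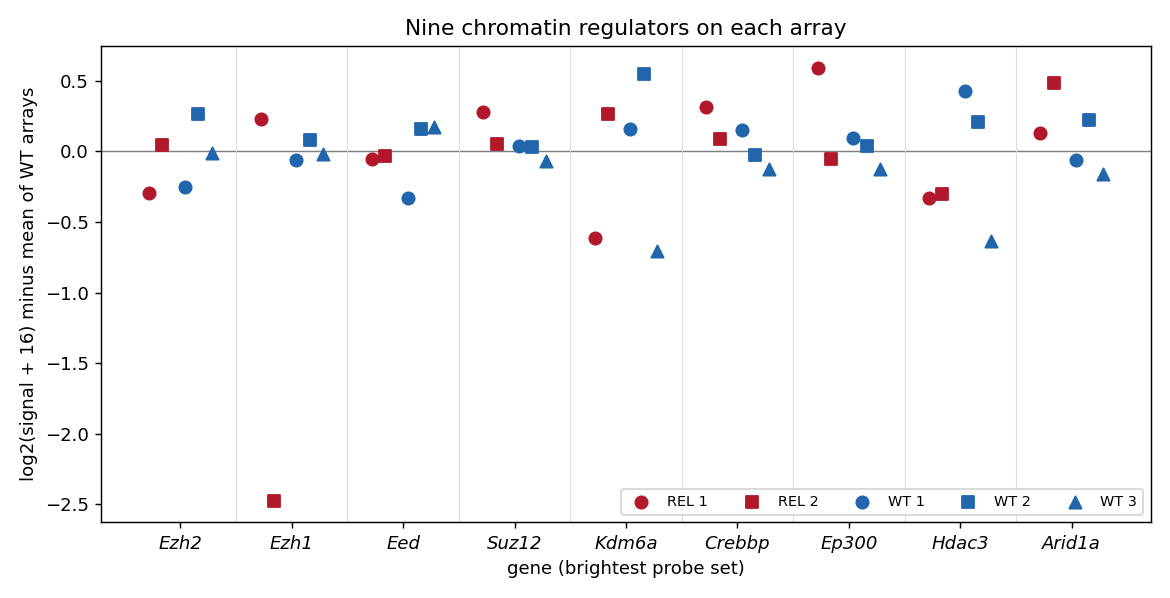
Each point is 1 array; the vertical axis is the log2(signal + 16) of a gene's brightest probe set minus the mean of the WT arrays, with REL arrays in red on the left of each column and WT arrays in blue. REL and WT points overlap for every gene except Suz12, and the REL 2 value of Ezh1 lies at −2.47.

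Ezh2, the catalytic subunit, had signals of 3800 and 4821 on REL arrays, against 3912, 5596 and 4630 on WT arrays. REL 1 was just below the lowest WT array and REL 2 lay within the WT range. The log2 difference was −0.12 (SE 0.21, limma adjusted p = 0.927), with a 95% interval of −0.59 to 0.34, which is 0.665 to 1.27 times the WT level. Its direction turned without REL 1 (0.048), without WT 2 (0.0081) and with the arrays centred on their medians (0.046).

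Eed encodes the subunit that binds trimethylated lysine 27. It had signals of 4056 and 4118 in REL and 3351, 4691 and 4757 in WT, so both REL arrays lay inside the WT range. The difference was −0.04 (SE 0.21, interval −0.51 to 0.42). A second Eed probe set had signals of 14.0 to 35.3 on the 5 arrays and was below the threshold for testing.

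Suz12, which encodes the scaffold of PRC2, had 6 probe sets, and all 6 had log2 differences above 0. They are not independent: 3 of them were designed on 1 transcript record and 2 others on another. The brightest had signals of 6129 and 5228 in REL, against 5183, 5159 and 4809 in WT. Both REL arrays were above every WT array, but REL 2 exceeded WT 1 by less than the range of the WT arrays, and the difference was 0.16 (SE 0.16, adjusted p = 0.838, interval −0.20 to 0.53).

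The probe set 1452364_at showed the greatest difference for Suz12. Its signals were 1768 and 1277 in REL and 1140, 653 and 687 in WT, again with no overlap, a difference of 0.90 (SE 0.36, unadjusted p = 0.0340, adjusted p = 0.561, interval 0.08 to 1.71). A probe set designed on the same record, 1427253_s_at, had 3341 and 2390 in REL and 2434, 1576 and 1846 in WT, where REL 2 lay below WT 1 (0.55, SE 0.27). The dim probe set 1420020_at had 179 and 104 in REL and 90.1, 91.9 and 84.1 in WT, with no overlap (0.55, SE 0.58). The remaining 2, 1420022_s_at and 1449661_at, were at 0.19 and 0.17 with overlapping groups, and 1449661_at at −0.053 without REL 1. Suz12 probe sets thus made up 3 of the 4 member probe sets with both REL arrays above every WT array. Those 4 were 18.2% of the 22, against 10.5% of all probe sets tested, and the opposite order was seen in 0 of the 22, against 13.5%. On the same REL arrays 11 of 15 macrophage, monocyte and neutrophil markers exceeded every WT array and Adgre1 lay below them all, with 0 called. Some of the 11 were tested only through their REL signals (above). Whether these markers have any link to the Suz12 signals was not tested.

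Ezh1, the paralog that serves mostly in cells that divide little, gave probe sets that disagreed. The brightest had signals of 334 and 38.0 in REL, against 272, 299.8 and 279.9 in WT. REL 1 was above all WT arrays and REL 2 far below them, so the difference of −1.12 (SE 0.76, adjusted p = 0.748, interval −2.82 to 0.58) rested on 1 array and was 0.23 without it. The other tested probe set had 195 and 295 in REL and 125, 149 and 251 in WT, a difference of 0.48 (SE 0.56), and there REL 2 was the highest array. A further 2 Ezh1 probe sets had signals of 1.83 to 39.7 in REL and 5.19 to 25.5 in WT and were not tested.

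**Figure D2:**
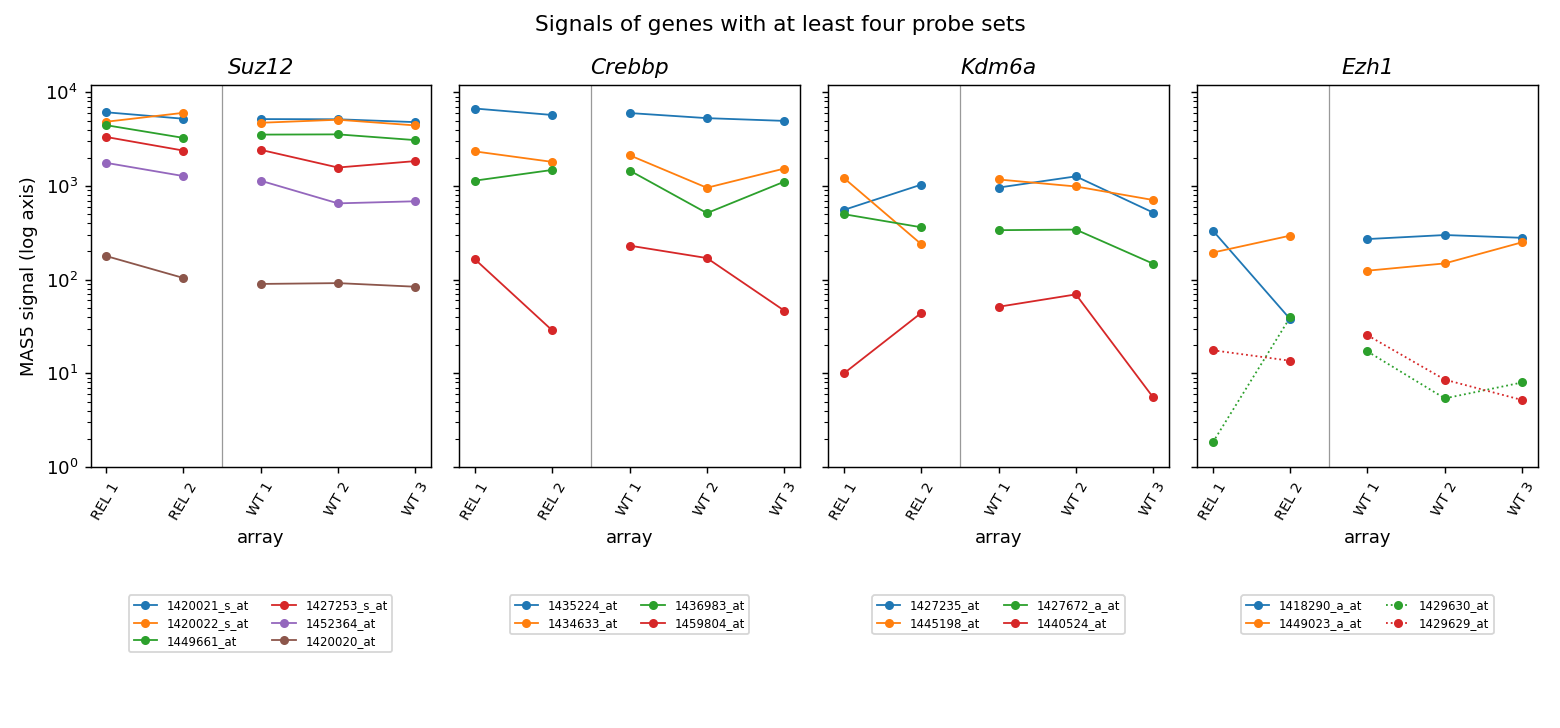
MAS5 signal on a log axis for each probe set (colours) of the genes with 4 or more, on REL arrays left of the grey line and WT arrays right of it; lines join the arrays of 1 probe set within a group, and dotted ones were below the filter. All 6 Suz12 probe sets have log2 differences above 0, from 0.16 to 0.90, and in 3 of the 6 both REL arrays are above every WT array. For Crebbp, Kdm6a and Ezh1, 1 probe set each has its lowest value on REL 2 and the brighter or next probe sets of the same gene do not.

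The balance of the paralogs was compared within each array, where array-wide scaling cancels. The log2 value of Ezh2 minus that of Ezh1 was 3.45 and 6.49 in REL, against 3.77, 4.15 and 3.97 in WT. REL arrays lay on either side of the WT arrays, and the group difference was 1.00 (exact permutation p = 0.8, two-sided; 0.8 after Benjamini-Hochberg adjustment over the 2 paralog pairs). It was −0.52 without REL 2 and 2.52 without REL 1, 0.20 with all probe sets of each gene averaged, and 0.66 with a pseudocount of 64.

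Kdm6a, the X-linked demethylase gene that opposes PRC2, had 4 tested probe sets, of which 1 was above 0 and 3 below. The brightest had 556 and 1034 in REL, against 963, 1268 and 520 in WT. The WT arrays alone spanned more than 2-fold, and the difference was −0.18 (SE 0.46, interval −1.21 to 0.85). Probe set 1445198_at had 1217 and 239.7 in REL and 1174, 989 and 709 in WT, so that REL 1 was the highest and REL 2 the lowest array (−0.76, SE 0.60). In 1427672_a_at both REL arrays, at 500.4 and 363, lay above the WT arrays, at 338, 343 and 148 (0.68, SE 0.54, adjusted p = 0.793). The fourth, 1440524_at, had signals of 5.53 to 69.7 and was at −0.34 (SE 0.74).

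Crebbp had signals of 6720 and 5732 in REL, against 6013, 5304 and 4958 in WT, on its brightest probe set. REL 1 was the highest array and REL 2 lay within the WT range. The difference was 0.20 (SE 0.17, adjusted p = 0.807), with an interval of −0.17 to 0.57, among the narrowest here. A further pair of probe sets was at 0.49 (SE 0.35) and 0.46 (SE 0.44), and the dimmest, with 165 and 28.7 in REL and 231, 170 and 46.8 in WT, was at −0.66 (SE 0.82).

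Ep300 had 4531 and 2889 in REL, against 3199, 3076 and 2743 in WT. REL 1 stood above all WT arrays and REL 2 lay within them. The difference was 0.27 (SE 0.24, interval −0.26 to 0.80), and −0.054 without REL 1. Within arrays, log2 Crebbp minus log2 Ep300 was 0.57 and 0.98 in REL and 0.91, 0.78 and 0.85 in WT, a difference of −0.07 (exact permutation p = 0.8, also after adjustment), and REL arrays again lay on either side of the WT arrays. Without REL 1 it was 0.14 and without REL 2 −0.28.

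Hdac3, which encodes the deacetylase of the NCoR and SMRT corepressors, had 628 and 642 in REL, against 1074, 919 and 506 in WT. The REL arrays were close to each other and lay within the WT range, and the difference was −0.32 (SE 0.41, interval −1.24 to 0.61).

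Arid1a had 2192 and 2805 in REL, against 1917, 2341 and 1785 in WT, on the brighter of 2 probe sets. REL 2 was the highest array and REL 1 lay below WT 2. The difference was 0.31 (SE 0.25, interval −0.25 to 0.86), and the other probe set was at 0.23 (SE 0.36).

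**Figure D3:**
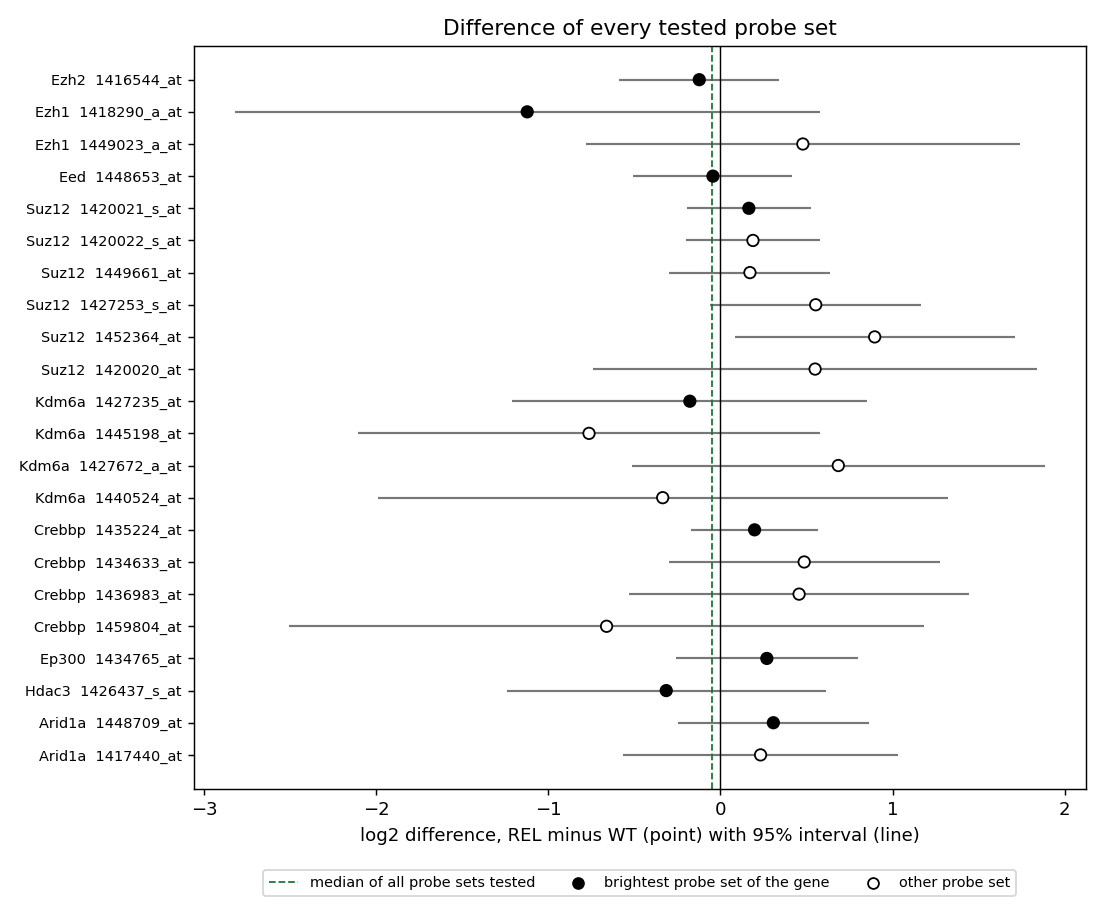
Points are log2 differences (REL minus WT) of the 22 tested probe sets and lines their 95% intervals from limma; filled points are the brightest probe set of each gene and the dashed line is the median of all probe sets tested, −0.05. All intervals cross 0 except that of Suz12 1452364_at.

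The intervals give the range of differences compatible with the 5 arrays under the limma model. For 6 genes, Ezh2, Eed, Suz12, Crebbp, Ep300 and Arid1a, the 95% interval of the brightest probe set lay within a 2-fold change in either direction. For Ezh1, Kdm6a and Hdac3 it did not. Over all member probe sets 8 of 22 (36.4%) had an interval within 2-fold, against 21.7% of all probe sets tested. Further probe sets of Suz12, Crebbp and Arid1a went beyond it, such as Suz12 1452364_at (0.08 to 1.71), Crebbp 1459804_at (−2.51 to 1.18) and Arid1a 1417440_at (−0.57 to 1.03). An interval is not a limit of detection. On simulated data (below) 3% of 2-fold and 18.8% of 4-fold changes, placed at random among all probe sets tested, were found. The median SE of all probe sets tested was 0.55, against 0.16 to 0.25 for the brightest probe sets of the 6 genes above. These rates were therefore not estimated for those 6 genes. In bulk RNA of sorted cells, fewer cells of a type and less RNA per cell cannot be told apart.

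The genes nearest to Ezh2 in profile were sought among 12022 others, by the root-mean-square distance between log2 profiles centred on their mean over the 5 arrays. The nearest were Rps3a1 (0.02 log2 units), Acyp1 (0.03), Ctss (0.03), Dynll1 (0.04) and Qars (0.04), where the median distance was 0.46. The Ezh2 profile itself had an SD of 0.23 over the 5 arrays. A search of 12022 genes over 5 arrays returns near profiles whatever their relation to Ezh2, and co-expression was not tested. Rps3a1, a ribosomal protein gene, had signals of 14552 and 18809 in REL and 15224, 21236 and 18443 in WT, so that REL 1 and WT 1 were the lowest arrays, as for Ezh2. Of the other 8 regulators Eed was the closest, at 0.15 and rank 617, and Ezh1 the farthest, at 1.09.

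The partners of PRC2 showed no called member either. For each list below the brightest probe set of each gene was used, 0% of the 12023 genes were called by limma, and 3.16% were higher and 4.79% lower at an unadjusted p under 0.05. The REL arrays exceeded all WT arrays for 9.67% of these genes and lay under them all for 14.2%, and the median difference was −0.07. Of 9 PRC2 partner genes 3 were above 0 and 6 below, with a median of −0.09 and 0 at an unadjusted p under 0.05 in either direction. Rbbp7, a histone-binding subunit, was at −0.23 (SE 0.14), Lcor at −0.53 (SE 0.30) and Jarid2, which helps recruit the complex, at −0.19 (SE 0.32). For Jarid2 2 of 3 tested probe sets pointed the other way, and their mean was at 0.18.

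Of 20 PRC1 genes tested, whose products bind or extend the Polycomb mark, 0 were called, 6 were above 0 and 14 below, with a median of −0.18. Pcgf3, a subunit of variant PRC1, was the farthest from 0: its signals were 1359 and 1519 in REL, against 505, 276 and 273 in WT. Both REL arrays were at least 2-fold above every WT array, yet the difference of 2.04 (SE 0.42, unadjusted p = 7.34e-04) had an adjusted p of 0.324. Pcgf6, of the same family, was at 0.80 (SE 0.43) and Yaf2, a partner of the catalytic core, at −0.35 (SE 0.18), each with no overlap between groups. For Pcgf6 1 of 3 tested probe sets pointed the other way, their mean was at 0.0059, and the difference was 0.31 without REL 2.

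Of 16 genes of the other lysine 27 demethylase and the lysine 4 methyltransferase complexes 0 were called, 9 were above 0 and 7 below, with a median of 0.04. Kdm6b, the inducible relative of Kdm6a, had signals of 4450 and 4394 in REL, against 3051, 2349 and 2762 in WT. The groups did not overlap, and the difference was 0.71 (SE 0.20, unadjusted p = 0.00620, adjusted p = 0.418), but the other of its 2 tested probe sets pointed the other way and their mean was at −0.21. Setd1b was at 1.43 (SE 0.61) and Kmt2a at 0.23 (SE 0.18). The REL arrays exceeded all WT arrays for 4 of the 16 genes and lay under them all for 0, against 9.67% and 14.2% of all genes. The same counts were 0 and 0 of the 9 PRC2 partner genes and 2 and 1 of the 20 PRC1 genes. Of the lists below they were 3 and 1 of 11 other acetyltransferase genes, 4 and 1 of 17 in the deacetylase list and 3 and 1 of 15 in the DNA methylation list.

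Among 11 other acetyltransferase genes 0 were called, 7 were above 0 and 4 below (median 0.19). Kat5, the catalytic subunit of the TIP60 complex, had 2132 and 2116 in REL, against 1493, 1336 and 1203 in WT, a difference of 0.66 (SE 0.26, unadjusted p = 0.0295, adjusted p = 0.539). Hat1 was at −0.31 (SE 0.19), and Kat6b at −1.33 (SE 0.89), with 34.3 on REL 2 and 555 on REL 1, and at 0.43 without REL 2. In the list of HDAC3 corepressors and other deacetylases 0 of 17 genes were called, with 8 above 0, 9 below and a median of −0.03. Hdac2 was at 0.52 (SE 0.25) but 2 of its 3 tested probe sets pointed the other way (mean −0.15), Hdac9 was at 0.47 (SE 0.29) and the demethylase gene Kdm1a at −0.35 (SE 0.23).

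Of 25 BAF and PBAF genes, the complexes of Arid1a, 0 were called, 11 were above 0 and 14 below (median −0.05). The REL arrays lay under all WT arrays for 6 and exceeded them all for 1, against 14.2% and 9.67% of all genes. Smarcb1, a core subunit, had 3407 and 5446 in REL, against 6147, 5912 and 7979 in WT (−0.62, SE 0.23, unadjusted p = 0.0222, adjusted p = 0.514). It was at −0.28 without REL 1, and 1 of its 3 tested probe sets pointed the other way (mean −0.32). Actl6a was at −0.60 (SE 0.29) and Smarcc2 at 0.55 (SE 0.31). Of 15 genes of DNA methylation and other chromatin genes mutated in lymphoma 0 were called, with 9 above 0, 6 below and a median of 0.10. Chd8, a remodeller, was at 0.81 (SE 0.34), the cohesin gene Rad21 at −0.33 (SE 0.17; −0.047 as the mean of 3 probe sets) and Tet2, which oxidises methylcytosine, at −1.41 (SE 0.91), with 18.1 on REL 2 and a difference of 0.11 without that array.

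**Figure D4:**
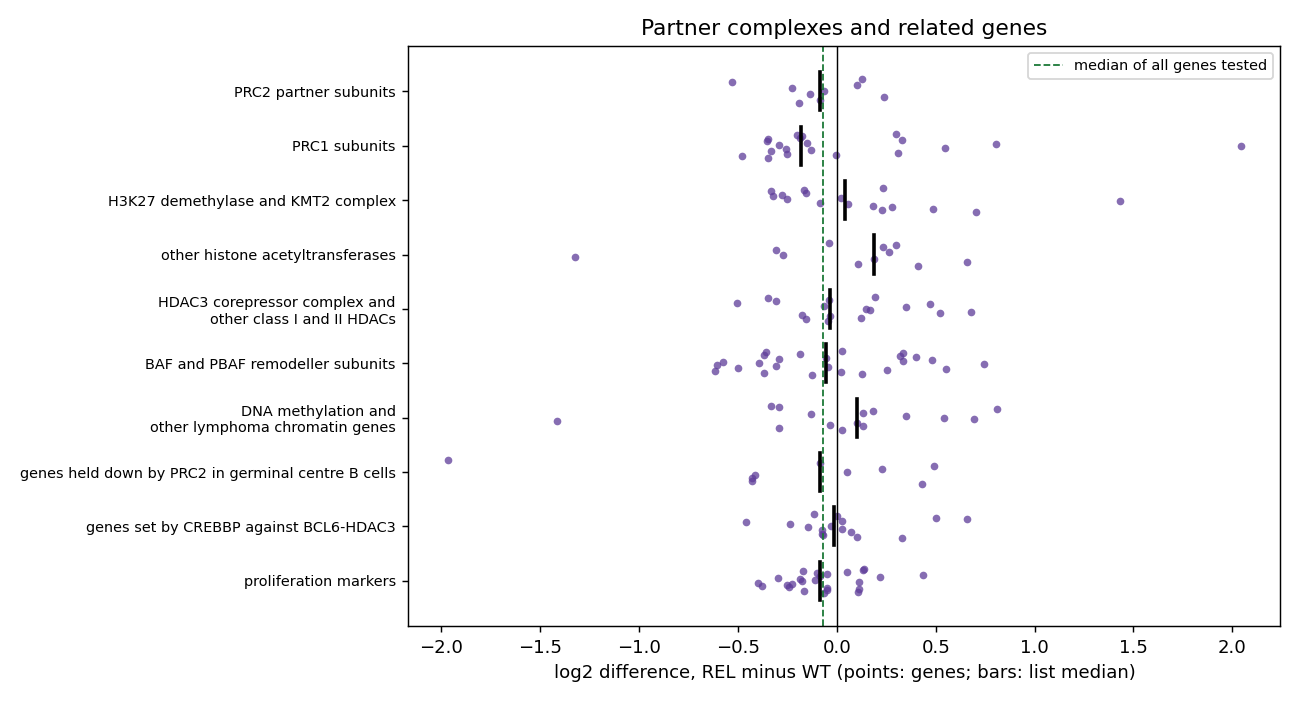
Each point is the log2 difference (REL minus WT) of 1 gene, each black bar the median of a list and the dashed line the median of all genes tested, −0.07. List medians lie between −0.18 and 0.19, and the point farthest right is Pcgf3 at 2.04.

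Genes known to lie under these regulators were read in the same way. Of 9 tested genes that PRC2 holds down in germinal centre B cells 0 were called, with 4 above 0 and 5 below (median −0.08). Sdc1, the plasma cell marker CD138, had 42.6 and 42.4 in REL, against 455, 125 and 164 in WT (−1.96, SE 0.67, adjusted p = 0.486), and the mean of its 3 tested probe sets, 1 of which pointed the other way, was at −0.92. Xbp1, of the secretory programme, was at 0.49 (SE 0.23) and Irf4 at −0.43 (SE 0.23). The other tested Irf4 probe set pointed the other way, and the mean of both was at 0.80. Of 16 genes under the opposed control of CBP and BCL6 with HDAC3, chiefly MHC class II presentation, 0 were called, 8 were above 0 and 8 below (median −0.01). Ciita, the class II transactivator, was at 0.33 (SE 0.30), Cd40 at −0.46 (SE 0.32) and Nr4a1 at 0.66 (SE 0.61). Of 25 proliferation markers, whose genes share E2F control with Ezh2, 0 were called, 8 were above 0 and 17 below (median −0.09), with Mcm6 at −0.38 (SE 0.17), Mcm5 at −0.24 (SE 0.14) and Ccnb2 at −0.40 (SE 0.24). At an unadjusted p under 0.05 each of these 3 lists had 0 genes higher, and 1, 0 and 1 genes lower in the order given. The REL arrays exceeded all WT arrays for 1, 0 and 2 of their genes and lay under them all for 1, 0 and 3.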

How the data were processed

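Sorted germinal centre B cells gave about 10 ng of total RNA, amplified with the NuGEN Ovation system and labelled with biotin, per the labels' protocols. The authors deposited MAS5 signal intensities on a linear scale (the method named, with no version, in the submitters' processing notes). Each deposited array has a 2% trimmed mean of 500. MAS5 scores each array alone and dim signals scatter widely. The number of arrays limits the precision. Scanner settings are not stated.

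Groups follow the sample titles. Of 45101 probe sets 34958 had 1 gene symbol, 932 several and 9211 none listed, and 34754 of the first matched a RefSeq gene. Values were transformed as log2(signal + 16), without further normalization, which understates the change of dim genes. Probe sets with 1 symbol above the lowest 40% by mean were tested (22204, for 12023 genes) with limma 3.58.1 in R 4.3.3 (eBayes with a mean-variance trend, 3 residual degrees of freedom) and Benjamini-Hochberg adjustment over all of them. Tables, exact tests and plots were made in Python 3.11.15 (scipy 1.17.1, numpy 2.4.6, pandas 2.3.3, matplotlib 3.10.9).

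Members and lists were chosen with earlier results of these data known. Named genes are the 9 members, Rel, the 3 of each list with the smallest p, and the 5 nearest to Ezh2. The named markers of all cell types were chosen after their values were seen. Of T cell, plasma cell and erythroid markers 0 of 4, 0 of 6 and 0 of 2 tested genes were called, and 0 of 15 of the macrophage list. As 0% of all probe sets were called, these counts do not show unchanged cell types. In the order given 2, 2 and 0 were above 0 and 2, 4 and 2 below. Of those below 0, Cd3e (18.3 and 4.63 in REL) and Slc4a1 (25.8 and 7.69 in REL) were tested only through their WT signals. For them the filter at 26.8 favoured a value below 0. Hbb-b2 had 82.1 and 35.5 in REL, against 290, 532 and 88.0 in WT (−1.87). Cd247 was at 1.72 with overlapping groups. On simulated data of 22204 probe sets with 200 changed, over 20 runs, 3% of the 2-fold and 18.8% of the 4-fold changes were found. Each run held 1.3 false calls on average, and 95% of the intervals of unchanged probe sets held 0. Whether these figures hold for the measured arrays was not tested.

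Alternatives were pseudocounts of 1 and 64, filters at 60% or none, median centring, quantile normalization, 1 probe set or the mean of the probe sets per gene, no trend, the replicate number as a block, and each array left out. Same-numbered arrays did not deviate together (correlations −0.02 and −0.004), and the numbers were not taken as pairs. The 2 REL arrays deviate from their mean as mirror images, so both correlations rest on 1 contrast. They cannot decide whether arrays were paired.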

Additional observations from a re-analysis of the deposited data

How the results depend on the processing

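The count of member probe sets called was 0 in all 15 alternatives and that of all probe sets was 0 in 14 (0 without each replicate). With the replicate number as a block 1 probe set was called lower, that of Mrpl33 (−1.54, adjusted p = 0.00441, against 0.116 without the block), named after its value was seen. The block changed no member's call. The members' lowest adjusted p ran from 0.17 to 0.935 over the alternatives. Median centring put the median of all probe sets at 0.12, against −0.05 uncentred, and 59.8% of all probe sets above 0 in place of 45.7%. Of 674 values of 45 named genes, 643 kept direction and side of the threshold and 31 turned, all uncalled before and after, and the cause was not tested. Median centring turned Ezh2 (0.046), Eed (0.126), Rps3a1 (0.037), Acyp1 (0.020), Ctss (0.019) and Dynll1 (0.067), quantile normalization turned Dynll1 (0.0031) and the replicate block turned Eed (0.044). With all probe sets of a gene averaged, Hdac2 was at −0.15, Irf4 at 0.80, Jarid2 at 0.18, Kdm6b at −0.21 and Qars at 0.27. Leaving out 1 array in turn gave ranges that crossed 0 for Ezh2 (−0.29 to 0.048), Ezh1 (−2.47 to 0.23), Eed (−0.21 to 0.044), Kdm6a (−0.62 to 0.26), Ep300 (−0.054 to 0.59), Jarid2 (−0.50 to 0.11), Kat6b (−3.08 to 0.43), Tet2 (−2.94 to 0.11), Rps3a1 (−0.32 to 0.053), Acyp1 (−0.31 to 0.012), Ctss (−0.33 to 0.033) and Dynll1 (−0.22 to 0.023). The same held for Ezh2 minus Ezh1 (−0.52 to 2.52) and Crebbp minus Ep300 (−0.28 to 0.14), which have no permutation test with 1 REL array left. With all probe sets averaged Ezh2 minus Ezh1 was 0.20 and Crebbp minus Ep300 −0.15, against 1.00 and −0.07 from the brightest, and with a pseudocount of 64 the first was 0.66.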
